A study of Homo sapiens and Mus musculus with 47 samples.

Results

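The cadherin and protocadherin genes were taken as every protein-coding gene whose symbol is CDH followed by digits or PCDH followed by letters or digits, without regard to case. The rule used names alone and no measured value. It found 88 of 57820 genes in the human count tables and 92 of 55401 genes in the mouse tables. The human set held 5 type I classical cadherins, 13 type II classical cadherins, 5 other cadherins, 13 non-clustered protocadherins and 52 clustered protocadherins. The mouse set held 5, 13, 5, 12 and 57 genes of the same families.

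Reads per gene came from Chrom-seq and RNA-seq. In Chrom-seq a reader domain that binds a histone mark is fused to a SunTag array of GCN4 peptides, an antibody fragment brings the peroxidase APEX2 to the array, and RNA nearby is tagged with biotin-aniline and captured. The TAF3 reader is a plant homeodomain finger of mouse sequence that binds H3K4me3, a mark of active promoters. It was compared with an array that carried no reader (Control) in HCT116, a human colorectal cancer line, NIH3T3, a mouse embryonic fibroblast line, and Neuro-2a, a mouse neuroblastoma line, with 3 libraries in each group. The RNA-seq libraries were from HEK293T, a human embryonic kidney line, with 3 libraries each of Control, CBX7 (the chromodomain of mouse CBX7, which reads H3K27me3), NC ASO, SETD5-AS1 ASO and LINC00662 ASO, and 2 of LINC00641 ASO. An antisense oligonucleotide (ASO) of the last 3 groups targets the long non-coding RNA it is named for, and the NC ASO targets none. The sample labels give every group, the ASO groups included, 48 h of transient co-expression of GCN4 and APEX2 fusion constructs, 500 µM biotin-aniline for 30 min and 1 mM H2O2 for 1 min. For the RNA-seq Control the study instead describes untreated HEK293T cells. The labels do not say whether replicates were separate cultures. The study calls its replicates of the CBX7 and untreated HEK293T profiles independent. The p-values measure the spread between these libraries. The 35 libraries held 10012172 to 17558305 counts in Chrom-seq and 8258859 to 15330874 in RNA-seq. The other 12 libraries, Chrom-seq of HEK293T, were not used here.

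Cadherins are calcium-dependent adhesion molecules of the cell surface. Classical cadherins bind the same or a similar cadherin on a neighbouring cell and are tied to actin through catenins, and a cell's choice of cadherin is a well-known mark of epithelial, mesenchymal or neural identity. Protocadherins adhere more weakly and are best known in neurons. The clustered protocadherins lie in alpha, beta and gamma arrays, in which each variable exon has its own promoter, and their stochastic choice gives each neuron a surface identity.

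The counts could see the clustered genes only in part. Every human gene whose annotated span lay wholly inside another gene on the same strand, 7910 in all, was at 0 in every library of all 3 human tables, as were all 6553 such mouse genes in both mouse tables. Of genes inside another gene on the opposite strand only, 41.13% had a count in HCT116, against 61.32% of genes inside none. Among the members, 33 human genes were nested on the same strand, namely 13 of 15 PCDHA, 20 of 21 PCDHG and 0 of 16 PCDHB genes. In mouse 56 were nested, including 13 of 14 Pcdha, 20 of 21 Pcdhg and all 22 Pcdhb genes, the last inside the locus Gm42416, as well as Cdh15 inside Galnt2l. PCDHA1 had 8.568 kb (3.79%) of its span to itself and PCDHGA1 had 8.287 kb (4.546%). PCDHAC2, the other PCDHA gene that was not nested, had 7 bases. The zeros of PCDHGC3 and the other nested members therefore say nothing about their expression. Of the 55 human members that were not nested, 37 had a count in HCT116, 52 in the HEK293T ASO table and 51 in the HEK293T Control and CBX7 table, and of 36 such mouse members 31 had a count in each line. One of them, the Y-linked PCDH11Y, is counted but its level is not given.

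**Figure D1:**
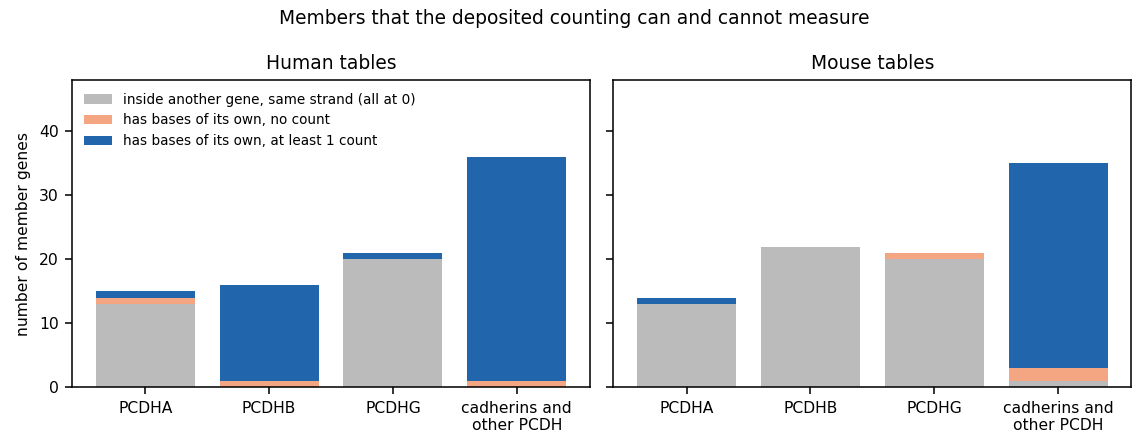
Number of cadherin and protocadherin genes (y axis) by family and organism, split into genes nested in another gene on the same strand and at 0 in every library, other genes with no count, and genes with at least 1 count. The nested class takes 33 human and 56 mouse members and covers most PCDHA and PCDHG genes, and in mouse also the Pcdhb genes, whereas 15 of 16 human PCDHB genes had a count.

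The human PCDHB genes were the clustered members open to measurement, and their promoters show what they share beyond their names. RefSeq start sites on GRCh38.p14 matched 67 of 87 members looked up. Within 250 bases before and 50 bases after the start, the letters CGCTGC (on either strand, GCAGCG on the other) were found in 11 of 13 PCDHB promoters (84.6%), in 16 of 45 clustered promoters (35.6%), in 6 of 22 promoters of the other members (27.3%) and in 24.7% of all 27305 promoters. The longer letters GGTGGCGCTGC, which hold the first and were chosen after the sequences were seen, stood in 10 of 13 PCDHB promoters (76.9%), in 0 of 13 PCDHA, 0 of 19 PCDHG and 0 of 22 other members, and in 30 of all 27305 (0.11%). A conserved element and CTCF sites are known features of clustered protocadherin promoters, but a match of letters is a description and not a bound site. The 11 windows are shown because they carry this likeness, each 26 bases, 5′ to 3′, with CGCTGC in capitals.
PCDHB2: cgcggggtggCGCTGCagccttagaa
PCDHB3: caggaagaatCGCTGCtcgtagataa
PCDHB4: cgcagggtggCGCTGCaggctaagtt
PCDHB5: cgcctggtggCGCTGCaggctaagag
PCDHB7: cgcaaggtggCGCTGCtggctaaaaa
PCDHB8: cccgtggtggCGCTGCaggataagaa
PCDHB16: cgcgtggtggCGCTGCaggttaagat
PCDHB10: cacacggtggCGCTGCaggctaaaga
PCDHB12: cgcgtggtggCGCTGCaggataatat
PCDHB13: cgcgtggtggCGCTGCaggataagaa
PCDHB15: cgcatggtggCGCTGCaggctaaggc
Around CGCTGC, 10 of the 11 held the longer letters, whose CGCTGC began between 79 bases before and 3 bases after the start. The one without, PCDHB3, held its CGCTGC 234 bases before the start.

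Of the other letters sought, CACCTG, an E-box of the kind bound by SNAI and ZEB repressors, was in 8.89% of clustered promoters, 13.6% of the others and 20.6% of all promoters, and TATAAA in 13.3%, 9.09% and 12% of them. The median clustered promoter held 7 CpG dinucleotides, the median promoter of other members 10.5 and the median of all promoters 14.

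The leading members differed between lines, although CDH24 and CDH2 were each among them in several lines. Levels between genes are given as CPM (counts scaled to the library total times its TMM factor) per kilobase of the span that only that gene covers. That span holds introns, and the libraries are of poly(A)+ RNA, so the order depends on intron length and is no order of transcripts. In HEK293T Control, CDH2 and PCDH7 had a mean of 2149 and 1334 counts against 221 for CDH24, which has a far shorter span. On this scale the first members in HCT116 Control were CDH3 (P-cadherin) at 2.51, CDH24 at 2.21, PCDH1 at 1.49 and CDH1 (E-cadherin, the epithelial cadherin) at 1.43. In HEK293T Control they were CDH24 at 1.51, PCDH18 at 0.846, CDH2 (N-cadherin) at 0.685 and PCDH10 at 0.546 CPM per kb. In NIH3T3 Control Cdh11, the type II cadherin of mesenchymal cells, was at 2.92 CPM per kb, Pcdh7 at 2.76, Pcdh18 at 2.31, Pcdh19 at 2.14 and Cdh2 at 1.14. In Neuro-2a Control Pcdh1 was at 12.1 CPM per kb, Cdh24 at 1.27, Pcdha1 at 0.916, Cdh22 at 0.636 and Cdh2 at 0.553. CDH2 and CDH11, and the protocadherins PCDH8, PCDH10, PCDH17 and PCDH18, were at or near 0 in HCT116.

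The lines were checked against markers of their labels. Summed markers of colon epithelium reached 4.11e+03 to 4.78e+03 CPM in HCT116 Control, carried by the keratins KRT19, KRT8 and KRT18 (means of 1868, 1729 and 536 CPM) and EPCAM (349). The intestinal markers of the list were near 0 there (LGALS4 at 0.175 and VIL1 at 0.373 CPM) or lower than in HEK293T Control (CDX2 at 12.5 against 30.7 CPM). Fibroblast markers reached 9.11e+03 to 9.69e+03 CPM in NIH3T3 Control against 1.01e+03 to 1.11e+03 in Neuro-2a Control, where Col1a2, Col3a1 and Thy1 were at 0. Neuroblast markers reached 2.91e+03 to 3.09e+03 CPM in Neuro-2a Control against 1.51 to 3.03 in NIH3T3 Control.

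A gene was called changed where the adjusted p of edgeR's quasi-likelihood test was below 0.05 and the log2 fold change was at least 0.75 in size. All adjusted p-values below are from that test with Benjamini-Hochberg adjustment over every gene tested. Errors on log2 fold changes are approximate standard errors (SE). Each is the size of the log2 fold change over the square root of the test's F statistic. For a group with only a few counts such an SE can be smaller than the counting error. Errors on CPM are SD. In bulk libraries, fewer cells of a type and less RNA per cell cannot be told apart.

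In NIH3T3, capture with the TAF3 reader was compared with the reader-free array to ask which RNAs lie near H3K4me3. Of 24 tested members, 8 were called higher and 0 lower, against 10.7% and 0.375% of all 19220 genes. DESeq2 made the same number of calls in each direction, and 2 members were lower at an unadjusted p below 0.05. The members' median log2 fold change was 0.71 and that of all genes 0.02. The calls fell on 2 of 3 tested type I, 1 of 7 type II, 4 of 5 other cadherins, 1 of 8 non-clustered protocadherins and 0 of 1 clustered gene.

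Among type I cadherins, Cdh4 (R-cadherin, known from retina and brain; chr2:179442431-179899373 in mm10) had 0, 20 and 4 counts in Control and 93, 139 and 103 with TAF3. All TAF3 libraries were above all Control libraries, and the log2 fold change was 3.74 (SE 0.51, adjusted p = 3.58e-06). Cdh1 had 3, 6 and 2 counts against 23, 8 and 30, a log2 fold change of 2.38 (SE 0.76, adjusted p = 0.0228), with no overlap but at few counts. Cdh2, the main type I cadherin of the line, had 4072, 3971 and 3890 counts in Control and 2991, 3232 and 3103 with TAF3. Its TAF3 libraries were all lower, at a log2 fold change of -0.39 (SE 0.0581, adjusted p = 1.69e-05), which is under the fold threshold.

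Among type II cadherins, Cdh5 (VE-cadherin, the cadherin of endothelial junctions) had 107, 89 and 134 counts in Control and 231, 154 and 219 with TAF3. The groups did not overlap, and the log2 fold change was 0.85 (SE 0.19, adjusted p = 0.00191). Endothelial markers moved with it, at a summed 6.66 to 7.47 CPM in Control against 20.1 to 26.7 with TAF3, with Tie1 at 0 in Control and Kdr (log2 fold change 3.03) and Tek (3.69) called higher. Their part in the result was not tested. Cdh11 had 7234, 6220 and 7117 counts against 6439, 6617 and 7227, overlapping ranges with a log2 fold change of -0.05 (adjusted p = 0.571).

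The other cadherins gave most calls. Cdh23, a long cadherin of the tip links of hair cells (chr10:60302748-60696490 in mm10, minus strand), had 57, 89 and 51 counts in Control and 252, 205 and 242 with TAF3, well apart, at a log2 fold change of 1.79 (SE 0.21, adjusted p = 4.29e-07). Cdh17, the liver-intestine cadherin, had 35, 15 and 48 counts against 119, 110 and 76, with no overlap (1.62, SE 0.32, adjusted p = 0.000545). Cdh13 (T-cadherin, which is anchored to the membrane by a lipid and lacks a cytoplasmic tail; chr8:118283733-119324921 in mm10) had 17, 16 and 12 counts against 49, 29 and 46, with no overlap (1.43, SE 0.43, adjusted p = 0.0164). Cdh16, the kidney cadherin, lay lower, with 3, 8 and 3 counts against 21, 13 and 23 (1.95, SE 0.72, adjusted p = 0.0495). Summed colon epithelium markers were 5.21 to 8.1 CPM in Control and 10.1 to 10.3 with TAF3, and their part was not tested.

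Of the non-clustered protocadherins, Pcdh15, the partner of Cdh23 in tip links, had 38, 38 and 43 counts in Control and 92, 104 and 96 with TAF3. It was called higher (1.26, SE 0.26, adjusted p = 0.000722). Pcdh7, the most abundant member by counts, had 17640, 16743 and 16567 counts against 14326, 13989 and 15330, with every TAF3 library lower but at a log2 fold change of only -0.25 (SE 0.0520, adjusted p = 0.000695). Pcdh1 had 263, 230 and 262 counts against 299, 314 and 425, at 0.42 (SE 0.13, adjusted p = 0.0208) and likewise under the threshold. Pcdh10 (0.36, adjusted p = 0.233), Pcdh18 (-0.10, adjusted p = 0.559) and Pcdh19 (0.14, adjusted p = 0.0653) did not pass.

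Several of these calls rested on few counts. Cdh1 and Cdh16 missed the threshold with the replicate number as a block (adjusted p = 0.0623 and 0.0872). Cdh1 was lost without Control replicate 1 or 3 or TAF3 replicate 1 or 3 (adjusted p up to 0.146), Cdh13 without Control replicate 3 or TAF3 replicate 1 or 3 (up to 0.0918) and Cdh16 without any single library but Control replicate 2 (up to 0.158). The log2 fold change of Cdh5 was 0.69 without TAF3 replicate 1. The number of members called was 4 without TAF3 replicate 1 and 5 without either TAF3 replicate 3 or Control replicate 3.

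In the locus of the clustered genes, Slc25a2, a mitochondrial ornithine carrier, had 5, 4 and 7 counts in Control and 41, 29 and 30 with TAF3, a log2 fold change of 2.60 (SE 0.56, adjusted p = 0.00119). Taf7, a subunit of the general factor TFIID that lies between the beta and gamma arrays, was at 19.7 to 21.7 CPM against 27.2 to 30.5, a log2 fold change of 0.48 (SE 0.11, adjusted p = 0.00225) under the threshold. Of 12 catenins and junction partners, Ctnnd2 (3.60) was called higher. The gene Taf3 itself rose from 2001 to 2311 counts to 126464 to 162941. The reader is of mouse sequence, and the part of its own transcript in these counts was not tested.

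In HCT116, 1 of 15 tested members was called higher with the TAF3 reader and 0 lower, against 3.34% and 3.28% of 18731 genes. DESeq2 also called 1 higher and 0 lower, and 4 members were lower at an unadjusted p below 0.05. The call was CDH13 (chr16:82660408-83830204 in hg19), which had 0, 1 and 2 counts in Control and 27, 13 and 24 with TAF3. All TAF3 libraries were above Control, and the adjusted p was 2.23e-06. Over the group sums the ratio was 23.3, with an exact 95% counting interval of 7.61 to 116.

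The 4 most abundant members in HCT116 lay lower with TAF3, each by less than the fold threshold. CDH1 (chr16:68771128-68869451 in hg19) had 2193, 2442 and 2462 counts in Control and 1748, 1617 and 1556 with TAF3, or 140 ± 4.66 against 106 ± 2.79 CPM (n = 3 each), a log2 fold change of -0.40 (SE 0.0589, adjusted p = 4.26e-07). Its neighbour CDH3 (chr16:68670092-68756519 in hg19) was at 216 ± 15 against 169 ± 7.67 CPM, a log2 fold change of -0.35 (SE 0.0583, adjusted p = 4.23e-06). PCDH7 was at 160 ± 13.1 against 122 ± 5.68 CPM (-0.39, SE 0.0616, adjusted p = 1.55e-06), and PCDH1 at 38.5 ± 2.99 against 27.7 ± 1.88 CPM (-0.47, SE 0.0847, adjusted p = 1.58e-05). In none of the 4 did the groups overlap. CDH24, by contrast, had overlapping counts of 389, 369 and 415 against 421, 481 and 332 (0.19, adjusted p = 0.119).

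CDH4 had 6, 2 and 2 counts in HCT116 Control and 9, 7 and 9 with TAF3, at 1.41 (SE 0.69, adjusted p = 0.112). Without Control replicate 1 it was called higher at 2.14 (adjusted p = 0.0498), which made 2 members called. Summed leukocyte markers were 4.3 to 4.97 CPM in Control and 9.93 to 11 with TAF3, with PTPRC at 0 in Control, and 3 endothelial markers summed to 0.819 to 1.44 against 0.958 to 1.54 CPM. Their part in these results was not tested. Of 10 catenins and junction partners CTNNA3 was called higher (1.61), of 5 cadherin repressors SNAI2 (0.93), and of 11 looping and chromatin factors none passed. TAF7 was at -0.06 (adjusted p = 0.553).

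In Neuro-2a the edgeR test called 0 of 18 members higher or lower with the TAF3 reader, against 1.01% and 0.0235% of 17006 genes. At an unadjusted p below 0.05 there were 3, and DESeq2 called 1, Cdh4. TAF3 replicate 1 was unlike its fellow replicates: the chi-square per gene was 32.752 and 37.405 to them but 3.2371 between them. Cdh4 had 2, 2 and 0 counts in Control and 18, 7 and 12 with TAF3, all higher, at 3.21 (SE 0.90, adjusted p = 0.126 with edgeR and 0.0498 with DESeq2). Pcdh17 had 18, 21 and 10 counts against 31, 27 and 50, with no overlap, at 1.21 (SE 0.39, adjusted p = 0.169), and without TAF3 replicate 1 it was called at 1.26 (adjusted p = 0.0304).

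The members that Neuro-2a expressed most did not pass. Pcdh1 had 4409, 3661 and 3383 counts in Control and 4653, 2941 and 2963 with TAF3, overlapping in CPM, at a log2 fold change of 0.00. Cdh2 had 1544, 1541 and 1296 counts against 766, 1292 and 1316 (-0.30, adjusted p = 0.383), slightly apart in CPM, and the lowest was TAF3 replicate 1. Cdh22 had 998, 948 and 878 counts against 936, 750 and 698 (-0.14), with overlap. Summed endothelial markers were 9.15 to 11.2 CPM in Control and 16.3 to 18.6 with TAF3. None of 12 catenins and partners, 4 repressors or 11 factors was called by edgeR in this line.

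**Figure D2:**
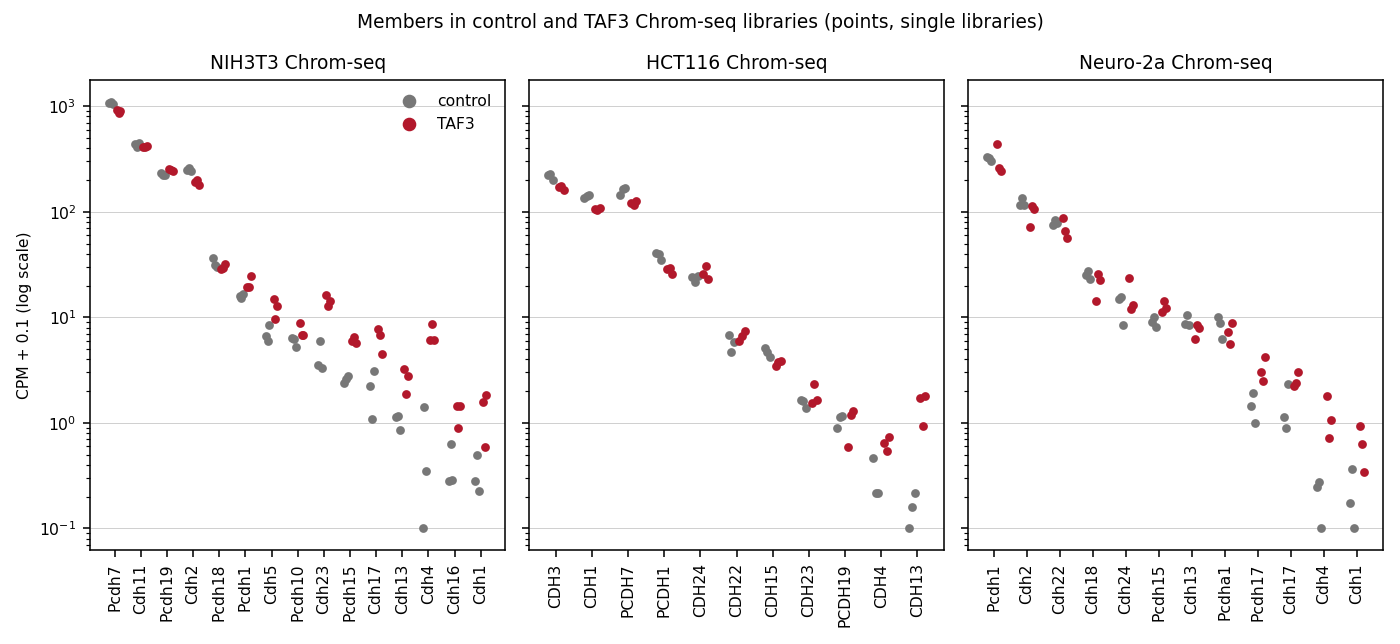
Level of members (CPM + 0.1, log axis) in each Control and TAF3 library of NIH3T3, HCT116 and Neuro-2a, 1 point per library. Cdh4 and Cdh23 in NIH3T3 and CDH13 in HCT116 stand apart between the groups, whereas the abundant Cdh11 of NIH3T3 overlaps.

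An interaction term compared the TAF3 effects of the 2 mouse lines, to ask whether the reader's capture differed by line. Of 26 members, 0 were called with a larger effect in Neuro-2a and 2 with a smaller one, against 0.718% and 2.33% of 19509 genes. DESeq2 gave the same numbers, and 2 members had a larger effect at an unadjusted p below 0.05. Cdh13, with 115, 119 and 94 Control counts and 66, 96 and 97 TAF3 counts in Neuro-2a, differed by -1.69 (SE 0.40, adjusted p = 0.0215). Cdh22 had NIH3T3 counts of 1, 3 and 1 against 14, 8 and 6 and was called in neither line on its own. Its effects differed by -2.52 (SE 0.64, adjusted p = 0.0373). Neither held throughout when single libraries were left out, as given in the closing section. For Cdh4 the difference was -0.52 (adjusted p = 0.974) and for Cdh23 -1.50 (adjusted p = 0.151).

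The Control libraries of the mouse lines were then compared for the members themselves. The line, its culture and its count table go together and cannot be told apart. Of 23 tested members, 10 were called higher and 9 lower in Neuro-2a, against 25.2% and 26.5% of 18433 genes, and the members' median log2 fold change was -0.60 against -0.04 for all genes.

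Among classical cadherins, Cdh22 (chr2:165111507-165234853 in mm10, minus strand), a type II cadherin known from brain and pituitary, had the highest fold change of the members with more than 3 counts in each line. It had 998, 948 and 878 counts there and 1, 3 and 1 in NIH3T3, a log2 fold change of 9.43 (adjusted p = 3.62e-22). With so few NIH3T3 counts the size of this change is known only roughly. Cdh18, another type II cadherin of the nervous system, had 339, 316 and 260 counts against 10, 4 and 9 (5.69, SE 0.24, adjusted p = 1.58e-16). In the other direction, Cdh11 was lower in Neuro-2a by a log2 fold change of -11.52 (adjusted p = 1.08e-26). Its mean was 1.67 counts in Neuro-2a against 6857 in NIH3T3, so the size of this change is likewise rough. Cdh5 had 1 count over the Neuro-2a libraries against 330, a ratio of 250 with a 95% counting interval of 44.6 to 9920. Cdh2 was present in both, and lower in Neuro-2a at -1.05 (SE 0.063, adjusted p = 2.3e-13).

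Non-clustered protocadherins split between the lines, with 5 called higher and 4 lower of 10 tested. Pcdh1, a protocadherin of both epithelia and neurons, was higher in Neuro-2a by 4.32 (SE 0.070, adjusted p = 5.5e-25). Pcdh7 had 3 counts over the Neuro-2a libraries and 50950 over those of NIH3T3, a ratio of 12900 (4410 to 62500). Pcdh19, which is known for a female-limited epilepsy, had 1 against 10802, a ratio of 8200 (1470 to 324000). Pcdh18 had 0 against 1547 and was at least 391-fold lower in Neuro-2a, taking 3 counts over the group as the floor. These intervals and the floor cover counting error only.

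The other protocadherins held less. Pcdh10 was lower in Neuro-2a at -4.09 (SE 0.39, adjusted p = 1.13e-09). Pcdh17 had 49 counts in Neuro-2a against 1, a ratio of 64.6 (11.1 to 2600), and Pcdh12 had 22 against 0, at least 9.67-fold higher. Pcdha1 had 134, 99 and 69 counts against 10, 4 and 9, with no overlap (4.08, SE 0.35, adjusted p = 1.88e-10). Only 9.021 kb (3.504%) of its span is its own, so the value does not speak for the other Pcdha genes. Of the other cadherins, Cdh13 was higher in Neuro-2a (3.25, SE 0.28, adjusted p = 2.1e-10) and Cdh23 lower (-2.31, SE 0.40, adjusted p = 1.73e-05).

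All 6 cadherin repressors tested were called lower in Neuro-2a, with Twist1 at -10.38, Snai1 at -9.18, Snai2 at -5.31 and Zeb1 at -0.94, in a comparison where 26.5% of all genes were. Of 12 catenins and partners, 3 were higher, led by Ctnna2, the alpha-catenin of neurons (9.33), and 2 lower. Of 11 looping and chromatin factors, 2 were higher and 1 lower, and Taf7 was at 0.15 (adjusted p = 0.319).

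**Figure D3:**
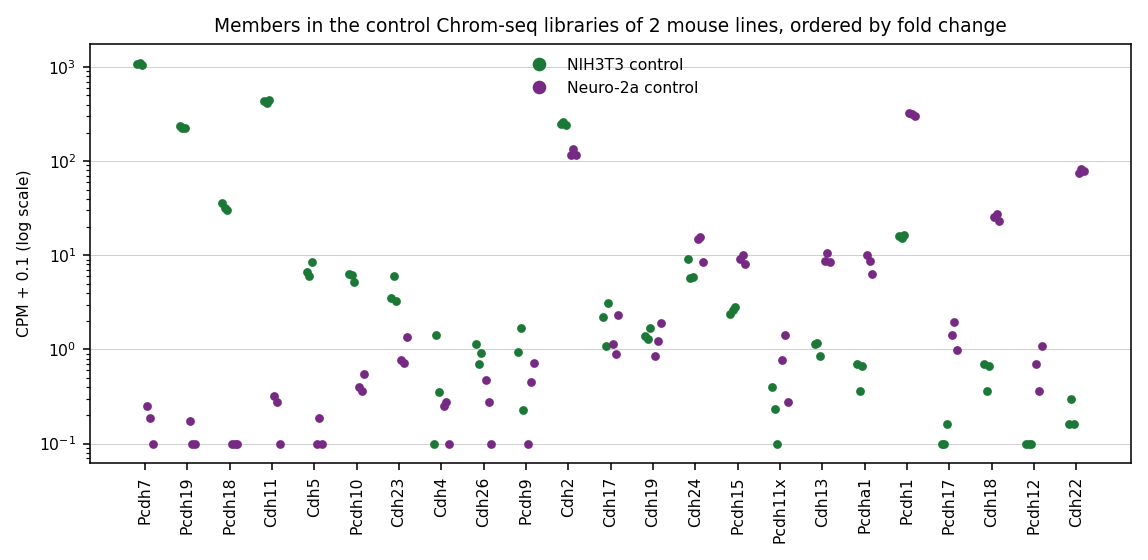
Level of members (CPM + 0.1, log axis) in each Control library of NIH3T3 and Neuro-2a, 1 point per library, ordered by fold change. Cdh22 and Cdh18 lie at the Neuro-2a end and Pcdh7, Pcdh19 and Cdh11 at the NIH3T3 end.

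In HEK293T, RNA-seq of cells with the CBX7 reader was compared with Control. The study describes these Control cells as untreated, so the reader, transfection, APEX2 and labelling cannot be told apart here. CBX7 was at 14.6 to 18.5 CPM in Control and 39.7 to 43.9 in the CBX7 libraries. Of 35 tested members, 0 were called higher and 2 lower, against 4.17% and 3.48% of 18204 genes. DESeq2 gave the same numbers, and 2 members were higher at an unadjusted p below 0.05. CDH3 had 133, 157 and 162 counts in Control and 46, 70 and 69 with CBX7, in libraries of 12109803 to 15330874 and 8258859 to 10995383 counts. That is 10.9 ± 0.278 against 6.16 ± 0.595 CPM (n = 3 each), with no overlap and a log2 fold change of -0.81 (SE 0.15, adjusted p = 0.000839). CDH26, a cadherin of inflamed epithelium (chr20:58533471-58609066 in hg19), had 65, 69 and 111 counts against 21, 33 and 48, at -0.78 (SE 0.24, adjusted p = 0.0246). With the replicate number as a block, both stayed called, CDH3 at -0.81 (adjusted p = 0.000246) and CDH26 at -0.78 (adjusted p = 0.00557).

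Both calls depended on CBX7 replicate 1, without which 0 members were called (CDH3 at -0.74, adjusted p = 0.0061, and CDH26 at -0.62, adjusted p = 0.104). CDH26 was also lost without CBX7 replicate 2 (adjusted p = 0.0967) or Control replicate 3 (0.119). CDH1 had 176, 211 and 197 counts in Control against 53, 97 and 102, at -0.75 (SE 0.16, adjusted p = 0.00227), a value just short of the fold threshold before rounding. With the block it stayed short of it (adjusted p = 0.000387). It was called without CBX7 replicate 2 (-0.78) or 3 (-0.88) or Control replicate 3 (-0.81). PCDH1 lay on the other side, with 103, 100 and 117 counts against 83, 107 and 159 in the shallower libraries, at 0.60 (SE 0.18, adjusted p = 0.0206). CDH23 (-0.43, adjusted p = 0.0178) and PCDH10 (-0.33, adjusted p = 0.0381) were lower by less than the threshold. Without the block, CDH2 (-0.22, adjusted p = 0.0991) and CDH4 (-0.33, adjusted p = 0.137) did not pass. With it, CDH2 passed the p threshold (adjusted p = 0.0301) but not the fold threshold (-0.22), and CDH4 passed neither (-0.31, adjusted p = 0.102).

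Of 6 repressors, SNAI1 (1.16, adjusted p = 0.00077) and SNAI2 (0.84, adjusted p = 0.017) were called higher with CBX7. Of 12 catenins and partners none was, of 11 factors the cohesin subunit STAG1 was (0.83), and TAF7 was at 0.02 (adjusted p = 0.89). Summed colon epithelium markers were 313 to 335 CPM in Control and 455 to 487 with CBX7, kidney line markers 608 to 711 and 409 to 418, and fibroblast markers 1.06e+03 to 1.09e+03 and 812 to 901. Their part in the result was not tested.

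ASOs against 3 long non-coding RNAs were each compared with the NC ASO. The 3 comparisons share the NC ASO libraries, so their values are given side by side and are not independent of each other. SETD5-AS1 was at 52.7 to 53.5 CPM with NC ASO and 3.93 to 4.70 with its ASO, LINC00641 at 38.4 to 42.9 and 0.915 to 1.93, and LINC00662 at 12.4 to 14.3 and 1.24 to 1.99. With SETD5-AS1 ASO, 8 of 40 members were called higher and 7 lower, against 12.9% and 11.5% of all genes. With LINC00641 ASO, 6 of 38 were higher and 6 lower, against 11% and 11.5%. With LINC00662 ASO, 8 of 38 were higher and 7 lower, against 11.6% and 13.3%. By family, type I cadherins gave 3 calls higher and 0 lower of 5 tested with SETD5-AS1 ASO, 2 and 0 with LINC00641 ASO and 3 and 0 with LINC00662 ASO. Non-clustered protocadherins gave 1 higher and 4 lower of 12, 0 and 4 of 12, and 1 and 3 of 12, in the same order.

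The NC ASO libraries themselves stood apart for many members. Of 37 members with enough counts over the 17 HEK293T libraries, 7 had all 3 NC ASO libraries above the 14 other libraries, Control and CBX7 included, and 5 had them below, which is 32.4% of these members against 29% of 18476 genes. The 7 above were PCDH7, PCDH8, PCDH10, PCDH17, PCDH18, PCDHGA1 and CDH24, and the 5 below were CDH2, CDH4, CDH11, CDH22 and CDH23. For no other group was the share above 13.5% of members, which LINC00662 ASO reached against 9.95% of genes.

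Of the type I cadherins, CDH4 (ENSG00000179242.11, chr20:59827482-60515673 in hg19) had 17, 19 and 20 counts with NC ASO. It had 59, 65 and 84 with SETD5-AS1 ASO, 113 and 112 with LINC00641 ASO and 200, 187 and 187 with LINC00662 ASO. The groups did not overlap, and the log2 fold change was 1.80 (SE 0.25, adjusted p = 9.21e-06), 2.40 (SE 0.24, adjusted p = 5.81e-08) and 3.12 (SE 0.19, adjusted p = 3.19e-13). The levels were 1.59 ± 0.248 CPM with NC ASO and 10.9 ± 1.9 in the Control of the other RNA-seq table (n = 3 each) and 13.3 ± 0.468 with LINC00662 ASO.

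CDH2 (chr18:25530930-25757410 in hg19, minus strand) had 1175, 1179 and 1025 counts with NC ASO, 1933, 2163 and 2253 with SETD5-AS1 ASO, 2277 and 2264 with LINC00641 ASO and 2159, 2250 and 2155 with LINC00662 ASO. All 8 libraries of the targeting ASOs were above the NC ASO libraries. It was called with SETD5-AS1 ASO (0.82, SE 0.08, adjusted p = 1.66e-07) and LINC00641 ASO (0.83, SE 0.08, adjusted p = 8.44e-08), and missed the fold threshold with LINC00662 ASO (0.73, SE 0.07, adjusted p = 2.26e-09). CDH1 had 81, 96 and 94 counts with NC ASO and 236, 245 and 226 with LINC00662 ASO, where it was called at 1.15 (SE 0.14, adjusted p = 8.74e-08). With the other ASOs CDH1 was at 0.67 (SE 0.16, adjusted p = 0.00138) and 0.49 (SE 0.17, adjusted p = 0.0218), both under the threshold. CDH3 was called with LINC00662 ASO too (0.87, SE 0.17, adjusted p = 0.000105).

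CDH15 (M-cadherin, the cadherin of muscle precursors) was the type I member that differed most between the ASOs. It had 7, 4 and 7 counts with NC ASO, 31, 26 and 18 with SETD5-AS1 ASO, 7 and 8 with LINC00641 ASO and 2, 4 and 3 with LINC00662 ASO. Against NC ASO the log2 fold change was 1.96 (SE 0.42, adjusted p = 0.000801), 0.14 (adjusted p = 0.871) and -1.19 (SE 0.67, adjusted p = 0.142).

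Of the type II cadherins, CDH11 had 16, 13 and 18 counts with NC ASO against 34, 69 and 46, 48 and 74, and 48, 63 and 56 with the targeting ASOs in the same order. It was called higher in all 3, at 1.56 (SE 0.31, adjusted p = 0.000359), 1.77 (SE 0.31, adjusted p = 7.09e-05) and 1.60 (SE 0.28, adjusted p = 2.36e-05). CDH22 had 18, 14 and 18 counts with NC ASO and 57, 54 and 51, 39 and 70, and 92, 76 and 76 with the others, and was called in all 3 at 1.61, 1.52 and 2.05 (adjusted p = 5.2e-05, 0.000539 and 5.52e-08).

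CDH24 and CDH12 went the other way. CDH24 had 322, 294 and 250 counts with NC ASO and 137 to 210 in the 8 libraries of the other ASOs, with no overlap. It was called lower with SETD5-AS1 ASO (-0.80, SE 0.11, adjusted p = 6.82e-06) and LINC00641 ASO (-1.01, SE 0.13, adjusted p = 3.03e-06) and missed the fold with LINC00662 ASO (-0.73, SE 0.11, adjusted p = 2.77e-06). CDH12, a brain cadherin, had 33, 43 and 34 counts with NC ASO and 10 to 26 with the others, at -0.87 (adjusted p = 0.0168), -1.52 (adjusted p = 0.0012) and -1.57 (adjusted p = 0.000184). CDH10 was called lower with SETD5-AS1 ASO (-1.28, SE 0.43, adjusted p = 0.0199), although its 17, 25 and 31 counts with NC ASO met 10, 5 and 17 with the ASO. CDH6 had a mean of 3.67 counts with NC ASO and passed in none (0.91, 1.03 and 0.89, adjusted p = 0.246, 0.26 and 0.279).

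Of the other cadherins, CDH23 had 71, 29 and 47 counts with NC ASO against 150, 189 and 160, 127 and 145, and 92, 120 and 96, with no overlap. Its log2 fold changes were 1.68 (SE 0.20, adjusted p = 1.73e-06), 1.30 (SE 0.23, adjusted p = 7.17e-05) and 0.85 (SE 0.22, adjusted p = 0.00171). CDH26 had 31, 41 and 32 counts with NC ASO and 69 to 110 in the others, and was called in all 3 at 1.03, 1.07 and 1.14 (adjusted p = 0.000627, 0.000617 and 5.84e-05).

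**Figure D4:**
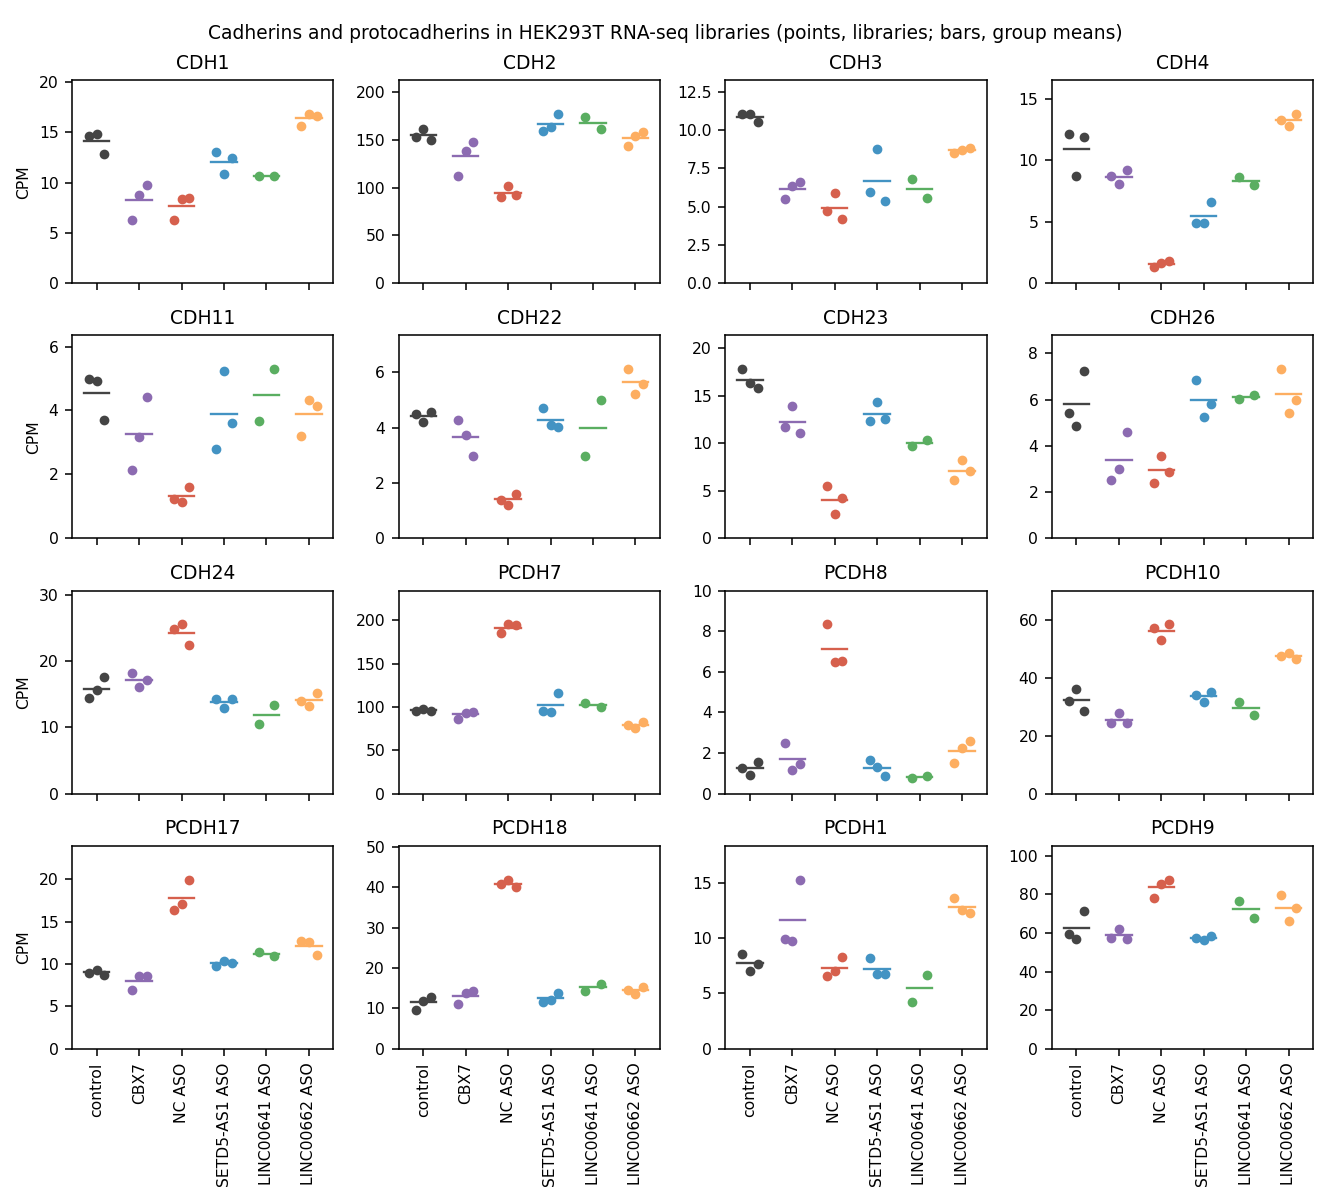
Level (CPM) of 16 members in each of the 17 HEK293T RNA-seq libraries by group, 1 point per library with a bar at the group mean. For PCDH7, PCDH8 and PCDH18 the 3 NC ASO libraries lie above all others, and for CDH2, CDH4 and CDH11 below them.

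Non-clustered protocadherins held the clearest falls. PCDH18, a delta protocadherin (chr4:138440072-138453648 in hg19, minus strand), had 530, 483 and 445 counts with NC ASO, 141, 161 and 176 with SETD5-AS1 ASO, 189 and 225 with LINC00641 ASO and 221, 197 and 209 with LINC00662 ASO. The level was 40.9 ± 0.964 CPM with NC ASO (n = 3) and between 9.727 and 16.08 CPM in every one of the 14 other HEK293T libraries. The log2 fold change was -1.69 (SE 0.10, adjusted p = 3.85e-10), -1.41 (SE 0.11, adjusted p = 2.35e-09) and -1.44 (SE 0.10, adjusted p = 1.85e-12).

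PCDH7 (chr4:30722037-31148422 in hg19) had 2406, 2251 and 2162 counts with NC ASO, 1158, 1249 and 1472 with SETD5-AS1 ASO, 1376 and 1392 with LINC00641 ASO and 1193, 1103 and 1127 with LINC00662 ASO. It was called lower in all 3, at -0.90 (SE 0.09, adjusted p = 1.36e-07), -0.90 (SE 0.08, adjusted p = 2.31e-08) and -1.22 (SE 0.07, adjusted p = 6.64e-14). PCDH8, a short protocadherin known from synapses and somites (chr13:53418109-53422775 in hg19, minus strand), had 108, 75 and 73 counts with NC ASO against 20, 17 and 11, 10 and 12, and 23, 33 and 35. The groups lay far apart, at -2.48 (SE 0.25, adjusted p = 2.56e-07), -3.11 (SE 0.29, adjusted p = 3.16e-08) and -1.70 (SE 0.22, adjusted p = 3.62e-07).

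PCDH10 had 741, 610 and 650 counts with NC ASO, 413, 419 and 444 with SETD5-AS1 ASO, 414 and 381 with LINC00641 ASO and 717, 709 and 633 with LINC00662 ASO. It was called lower with LINC00641 ASO (-0.92, SE 0.10, adjusted p = 2.69e-07), missed the fold with SETD5-AS1 ASO (-0.73, SE 0.08, adjusted p = 1.13e-06), and was at -0.18 with LINC00662 ASO (adjusted p = 0.05). PCDH17 was called lower with SETD5-AS1 ASO (-0.81, SE 0.13, adjusted p = 3.24e-05) and was at -0.66 and -0.49 with the others. PCDH9 (-0.53, -0.20 and -0.15) and PCDH19 (-0.27, -0.30 and -0.53) stayed under the threshold in each.

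PCDH1 differed between the ASOs. It had 85, 81 and 92 counts with NC ASO, 99, 89 and 86 with SETD5-AS1 ASO, 56 and 93 with LINC00641 ASO and 205, 183 and 166 with LINC00662 ASO. It was called with LINC00662 ASO at 0.87 (SE 0.14, adjusted p = 1.17e-05), against 0.00 (adjusted p = 0.997) and -0.39 (adjusted p = 0.131). PCDH15 was called higher with SETD5-AS1 ASO (1.19, SE 0.38, adjusted p = 0.0132), at 28, 39 and 28 counts against 14, 20 and 5.

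The clustered members were low throughout. PCDHB15 (chr5:140625147-140627799 in hg19) had 26, 18 and 7 counts with NC ASO and 6, 7 and 2 with LINC00662 ASO, where it was called lower at -1.95 (SE 0.53, adjusted p = 0.00293), with no overlap in CPM. PCDHB14 (-2.02, SE 0.71, adjusted p = 0.0184) and PCDHGA1 (-1.76, SE 0.69, adjusted p = 0.0332) were also called lower there, at means under 10 counts. With SETD5-AS1 ASO 0 of 9 and with LINC00641 ASO 0 of 8 clustered members were called by edgeR, at a median log2 fold change of -0.69 and -0.45, and counts this low leave smaller changes undetectable.

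The promoters of 4 protocadherins that these ASO results turn on are given as 300 bases each from RefSeq on GRCh38.p14, 5′ to 3′ on the gene's strand, with CGCTGC or GCAGCG and TATAAA in capitals. They are shown for PCDH7, PCDH18 and PCDH8, called lower with each targeting ASO, and for PCDHB15, called lower with LINC00662 ASO. The nearest gene start may be one of several used.
PCDH7 (chr4:30720119-30720418, plus strand): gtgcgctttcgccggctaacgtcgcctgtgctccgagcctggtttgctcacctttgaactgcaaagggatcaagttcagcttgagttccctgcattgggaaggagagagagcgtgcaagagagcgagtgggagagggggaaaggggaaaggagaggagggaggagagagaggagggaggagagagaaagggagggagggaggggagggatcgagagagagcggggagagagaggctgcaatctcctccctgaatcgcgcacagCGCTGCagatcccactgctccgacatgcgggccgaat
PCDH18 (chr4:137532445-137532744, minus strand): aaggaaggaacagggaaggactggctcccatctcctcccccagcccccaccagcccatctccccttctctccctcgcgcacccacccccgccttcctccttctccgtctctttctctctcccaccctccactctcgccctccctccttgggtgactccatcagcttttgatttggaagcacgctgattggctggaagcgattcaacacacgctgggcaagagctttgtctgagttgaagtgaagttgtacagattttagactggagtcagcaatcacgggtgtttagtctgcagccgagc
PCDH8 (chr13:52848591-52848890, minus strand): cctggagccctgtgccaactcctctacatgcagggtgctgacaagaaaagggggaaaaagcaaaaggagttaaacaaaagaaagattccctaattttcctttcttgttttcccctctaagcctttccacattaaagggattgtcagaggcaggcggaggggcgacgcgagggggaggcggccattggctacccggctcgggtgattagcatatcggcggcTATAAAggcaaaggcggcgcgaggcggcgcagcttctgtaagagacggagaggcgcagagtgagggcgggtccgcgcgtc
PCDHB15 (chr5:141245145-141245444, plus strand): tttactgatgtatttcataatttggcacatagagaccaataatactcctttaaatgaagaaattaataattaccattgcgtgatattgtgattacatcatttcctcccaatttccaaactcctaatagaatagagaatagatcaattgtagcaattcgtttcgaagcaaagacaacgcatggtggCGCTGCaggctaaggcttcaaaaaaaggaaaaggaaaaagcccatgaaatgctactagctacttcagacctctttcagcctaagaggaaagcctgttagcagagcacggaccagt
CGCTGC or GCAGCG stood once each in the windows of PCDH7 and PCDHB15 and in neither of the others, and TATAAA stood once, in that of PCDH8. The windows of PCDH8, PCDH7, PCDH18 and PCDHB15 held 20, 16, 10 and 6 CpG dinucleotides. CACCTG was in none of the 4, which says only that these letters are not in these windows.

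**Figure D5:**
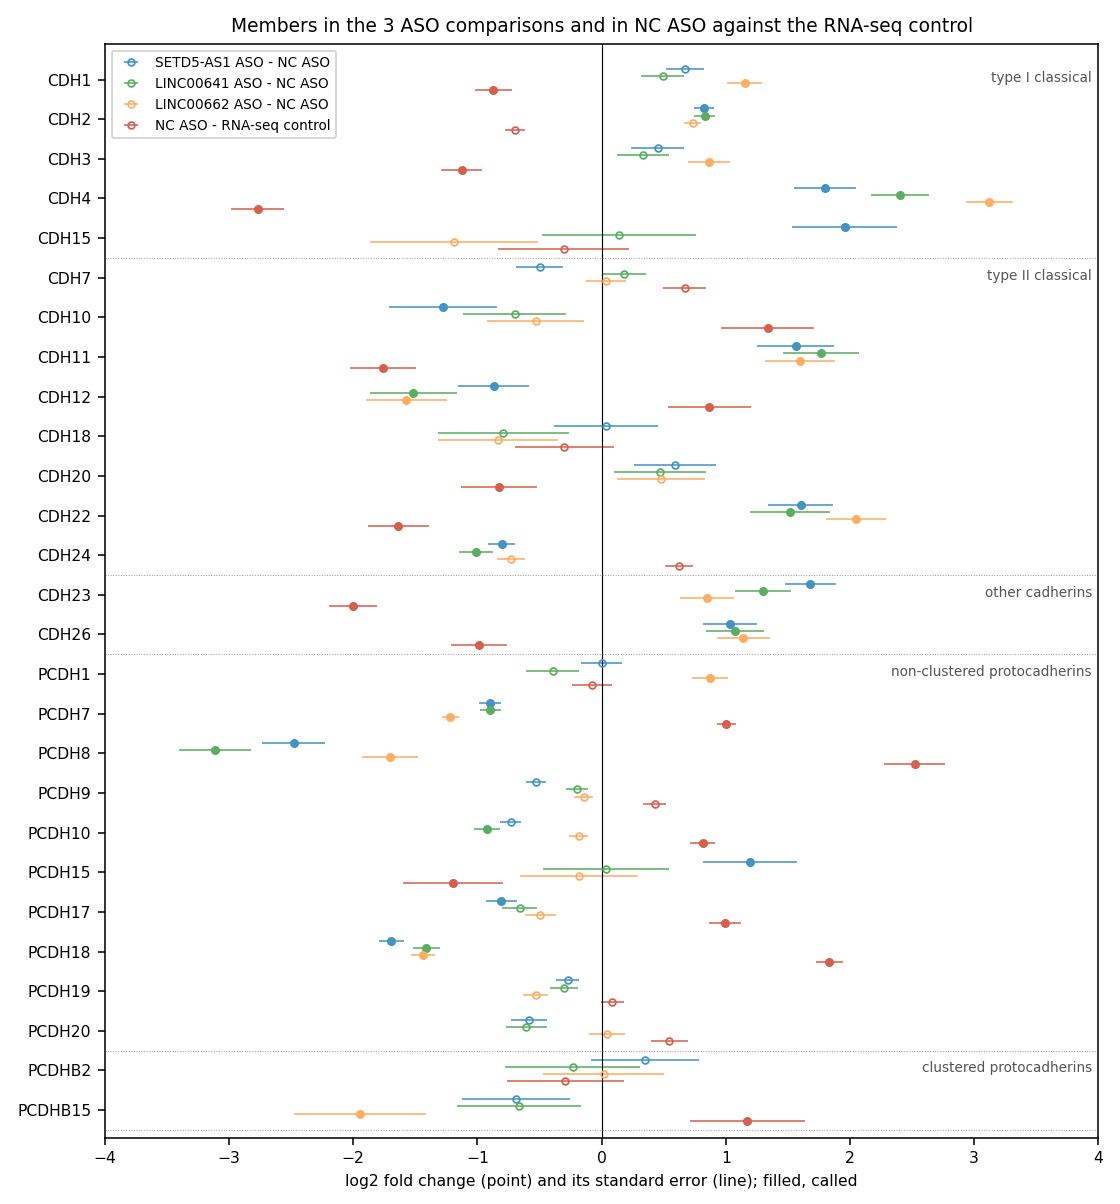
Log2 fold change (x axis, error bars are SE) of members with a mean of at least 10 counts for each targeting ASO against NC ASO and for NC ASO against the RNA-seq Control, filled where called. CDH4 and CDH11 are called higher and PCDH7, PCDH8 and PCDH18 lower with all 3 targeting ASOs.

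Leaving out single libraries ended some of these calls. With SETD5-AS1 ASO, CDH10 and PCDH15 were lost without NC ASO replicate 3 (adjusted p = 0.106 and 0.0658) or SETD5-AS1 ASO replicate 2 (0.0916 and 0.0563), CDH12 without NC ASO replicate 2 (0.0766) or SETD5-AS1 ASO replicate 1 (0.0595), and PCDH17 without NC ASO replicate 3 (log2 fold change -0.73). PCDH10 passed there without NC ASO replicate 2 or SETD5-AS1 ASO replicate 3 (-0.78 and -0.76) and with DESeq2 (-0.75). With LINC00662 ASO, CDH23 was lost without its replicate 2 (0.73) or NC ASO replicate 2 (0.59), and CDH2 passed without its replicate 1 or NC ASO replicate 2 (both 0.78) and with scaling by library size alone (0.77). With LINC00641 ASO, PCDH1 passed as lower without replicate 3 (-0.75, adjusted p = 0.026). With scaling by library size alone, the share of all SETD5-AS1 ASO calls that were higher went from 52.8% to 66.5% while the all-gene median of the log2 fold change moved by 0.14, to 0.17. Relative to that shift, CDH12 (-0.73) and PCDH17 (-0.67) were no longer called, CDH1 (0.81) was, and 9 members were higher and 4 lower.

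Partners and regulators from the same lists were read in these comparisons. With SETD5-AS1 ASO, 2 of 12 catenins and partners were higher (PKP4 at 1.30 and VCL, vinculin, at 1.1) and 2 lower (CTNNB1, beta-catenin, at -0.83 and JUP at -1.06). With LINC00641 ASO 3 were higher and 1 lower, and with LINC00662 ASO 3 higher and 1 lower, PKP4 and VCL being among those higher in both. Of 6 cadherin repressors, SNAI1 was called lower with each ASO (-3.86, -3.54 and -3.30), as was SNAI2 (-2.13, -1.86 and -2.01), while ZEB1 was called higher with SETD5-AS1 ASO (0.96) and LINC00641 ASO (0.99). Of 11 looping and chromatin factors 0, 1 and 1 were called, SMC1A higher at 0.87 and NIPBL, the cohesin loader, lower at -2.05. TAF7 was lower with each ASO at -1.43, -1.13 and -1.15, from 297 to 306 CPM with NC ASO, against 105.64 to 149.97 CPM in the other 14 HEK293T libraries. For LINC00662 knockdown the study describes raised TAF7 transcription, the opposite direction to the one in these counts.

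Marker sums moved with NC ASO as well. Colon epithelium markers summed to 626 to 696 CPM with NC ASO against 272 to 487 elsewhere in HEK293T, neuroblast markers to 114 to 118 against 47.4 to 72.3, and endothelial markers to 3.94 to 6.47 against 0.955 to 3.56. Their part in these results was not tested.

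LINC00662 ASO was also compared with the other 2 targeting ASOs together, which leaves out the NC ASO libraries and asks what differed between the targets. Of 36 members, 3 were called higher and 3 lower, against 2.38% and 7.32% of 18409 genes. PCDH1 was higher at 1.01 (SE 0.14, adjusted p = 1.73e-05) and CDH4 at 0.97 (SE 0.13, adjusted p = 8.77e-06), both with all LINC00662 ASO libraries above the 5 others. CDH15 was lower at -2.29 (SE 0.50, adjusted p = 0.00156), again with no overlap. CDH8, a type II cadherin of the nervous system, had 0, 4 and 0 counts against 9, 10 and 9 and 7 and 10, at -2.77 (SE 0.75, adjusted p = 0.00784).

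PCDHB15 was lower at -1.33 (SE 0.47, adjusted p = 0.0389), and was lost with the replicate block (-1.35, adjusted p = 0.0535). PCDH8 was higher at 1.04 (SE 0.31, adjusted p = 0.0143), although its groups overlapped in CPM, and was lost without LINC00662 ASO replicate 2 or 3 (adjusted p = 0.0543 and 0.0795). CDH1 (0.52), CDH3 (0.42), PCDH10 (0.59) and PCDH7 (-0.38) were below the fold threshold, and CDH2 was at -0.15. ZEB1 (-1.39) and NIPBL (-2.05) were called lower, no catenin was called by edgeR, and TAF7 was at 0.08 (adjusted p = 0.428).

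Since NC ASO stood apart, it was compared with the Control of the other RNA-seq table, a comparison added after the data were seen. The count table, the delivery of an ASO and anything particular to the NC ASO libraries cannot be told apart in it. It also shares the NC ASO libraries with the comparisons above. Of 39 members, 11 were called higher and 10 lower with NC ASO, against 16.2% and 16.3% of 18519 genes. Type I cadherins gave 0 calls higher and 3 lower of 5, other cadherins 0 and 3 of 3, non-clustered protocadherins 6 and 1 of 12 and clustered genes 3 and 0 of 8.

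CDH4 was lower with NC ASO at -2.77 (SE 0.22, adjusted p = 1.34e-08), from 146, 124 and 182 Control counts, as were CDH3 at -1.13 (SE 0.16, adjusted p = 1.54e-05) and CDH1 at -0.87 (SE 0.15, adjusted p = 9.45e-05). CDH2 was at -0.70 (SE 0.083, adjusted p = 1.7e-06), under the threshold. Of the type II and other cadherins, CDH11 (-1.76), CDH22 (-1.64), CDH23 (-2.0) and CDH26 (-0.99) were lower, with adjusted p from 1.78e-07 to 0.00128. Higher with NC ASO were PCDH8 at 2.52 (SE 0.24, adjusted p = 1.69e-07), from 15, 13 and 24 Control counts, PCDH18 at 1.84 (SE 0.11, adjusted p = 9.67e-10), PCDH7 at 1.01 (SE 0.076, adjusted p = 1.06e-08), PCDH17 at 0.99 and PCDH10 at 0.81.

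At low counts, PCDHGA1 was higher at 2.40 (adjusted p = 0.00515) and PCDHB15 at 1.17 (adjusted p = 0.0372). PCDHB15 was lost with DESeq2, with the replicate block and without single libraries, replicate 1 or 3 of Control and 1 or 2 of NC ASO (adjusted p of 0.0544 to 0.218). CDH1 was lost without NC ASO replicate 1 (-0.73) and PCDH10 without Control replicate 3 (0.71), while CDH2 passed without NC ASO replicate 2 (-0.75). PCDHB14 had 22 counts against 3, a ratio of 8.56 (95% counting interval 2.57 to 44.7), and PCDH12 had 17 against 2, a ratio of 9.93 (2.36 to 88.6). SNAI1 (3.08) and SNAI2 (2.25) were higher and ZEB1 (-1.04) lower, 1 of 12 catenins and partners was higher and 5 lower, and TAF7 was higher at 1.26 (SE 0.08, adjusted p = 1.46e-09).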

How the data were processed

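Counts per gene were deposited by the authors for 47 samples, of which 35 libraries in 5 tables were used. Per the labels and the study's methods, poly(A)+ RNA was made into Smart-seq libraries, which were trimmed with fastp 0.23.1, aligned with HISAT2 2.1.0 (human to hg19, mouse to mm10) and counted over GENCODE annotation with featureCounts 2.0.1, so values are raw whole-number counts, not normalized. The deposited gene lengths are whole spans, introns included. How overlapping genes were counted is not given in the sources used here. The table of the HEK293T Chrom-seq libraries was not used, so 3 planned comparisons were not run. Groups came from the sample titles.

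Genes with a summed count above 3 per library (18 for 6 libraries, 15 for 5, 36 for 12) were fitted with TMM scaling in edgeR 4.0.16 (R 4.3.3), on the libraries of each comparison alone. Calls needed an adjusted p below 0.05 together with a log2 fold change of 0.75 or more in size. CPM are counts scaled to each library's total times its TMM factor. The test was checked on simulated counts of the better-counted genes only, with a fixed low spread between libraries. That check covers neither members at few counts nor the interaction. Alternatives were DESeq2 1.42.0, its size factors in edgeR, library size alone, no filter, filterByExpr, a replicate block, each library left out in turn and all ASO groups in 1 fit. Same-numbered CBX7 and Control libraries deviated together (r of 0.133 to 0.338 over genes, all above 0.1). These numbers were therefore taken as pairs in a further fit with the block, although the labels name no shared batch. Values for CBX7 are from the fit without pairs unless the block is named.

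Named genes were 16 set members and 2 locus genes in every comparison, plus the called members with a mean of at least 10 counts, up to 8 rises and 6 falls. CDH8, CDH10, CDH15, CDH18, PCDHB14, PCDHGA1, Pcdh12 and others outside that rule were picked with their values in view. The members and lists were chosen with earlier results of these data known. With these depths a gene at a few counts per library is known only to within its counting error. The levels of some single marker genes are not reported here.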

Additional observations from a re-analysis of the deposited data

Results flagged for a closer look

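The effect of the TAF3 reader differed between Neuro-2a and NIH3T3 for 2 members, by the interaction test of edgeR. Cdh13 differed by -1.69 on the log2 scale (SE 0.40, adjusted p = 0.0215), with a log2 fold change of 1.43 in NIH3T3 and -0.26 in Neuro-2a. Cdh22 differed by -2.52 (SE 0.64, adjusted p = 0.0373), but it was called in neither line on its own. Its log2 fold change was 2.38 in NIH3T3 (adjusted p = 0.106), from 1, 3 and 1 Control counts, and -0.14 in Neuro-2a (adjusted p = 0.695). Cdh13 was lost without Control replicate 3 or TAF3 replicate 1 of NIH3T3 or Control replicate 2 of Neuro-2a (adjusted p of 0.0647 to 0.0698). Cdh22 was lost without any one of 8 of the 12 libraries, namely Control replicates 1 and 3 and TAF3 replicates 1 and 2 of NIH3T3 and the 3 Control libraries and TAF3 replicate 2 of Neuro-2a (0.0524 to 0.16). Without TAF3 replicate 1 of Neuro-2a, the library that stood apart, Pcdh1 differed too, by -0.76 (adjusted p = 7.16e-05), and without TAF3 replicate 3 of Neuro-2a so did Pcdh7, by 2.85 (adjusted p = 0.013), a gene with 3 counts over the Neuro-2a Control libraries.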

How the results depend on the processing

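Of the alternative values for single members and list genes, 2357 of 2449 kept their side of the threshold, 68 lost the call and 24 gained one. Among values called in either fit, 0 reversed direction. Direction was not compared for values called in neither fit. Without a filter and with DESeq2, 1 member was called for TAF3 in Neuro-2a, against 0, and over all genes the calls there went from 172 higher and 4 lower to 489 and 27 without a filter and 389 and 13 with DESeq2. Leaving out each library in turn gave 1 to 2 calls for TAF3 in HCT116, 4 to 8 in NIH3T3 and 0 to 1 in Neuro-2a, 0 to 3 for CBX7, 13 to 16 for SETD5-AS1 ASO, 12 to 15 for LINC00641 ASO, 12 to 17 for LINC00662 ASO, 4 to 7 for LINC00662 ASO against the other ASOs, 0 to 3 for the mouse interaction, 17 to 19 for the mouse lines and 16 to 19 for NC ASO against Control. Where that left a lone library, its spread was taken as that of the others. With the replicate number as a block, members called were 6 for NIH3T3, 5 for LINC00662 ASO against the other ASOs, 17 for the mouse lines and 18 for NC ASO against Control, and the count was the same as without it in the other 7 comparisons. Apart from CBX7, no comparison had all its same-numbered pairs correlated above 0.1, so the numbers were not taken as pairs there. In LINC00662 ASO against the other ASOs, the 3 pairs with SETD5-AS1 ASO were (0.108 to 0.179) but those with LINC00641 ASO were not (-0.168 and -0.00945). Members below about 10 counts per library are limited by depth.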
